A study of Mus musculus with 2 samples.

Results

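Open chromatin at the genes of phase II conjugation and of the carboxylesterases was compared between livers with and without Mettl3 in hepatocytes. The members were the 192 regions, of 69549 distinct ATAC-seq regions, whose closest gene had a symbol of the glutathione S-transferases (Gsta, Gstk, Gstm, Gsto, Gstp, Gstt, Gstz and the microsomal Mgst), the UDP-glucuronosyltransferases (Ugt1 to Ugt3), the sulfotransferases (Sult) or the carboxylesterases (Ces). They were chosen by gene name, in families picked with earlier results of these data known, and belong to 73 genes, among the 86 protein-coding genes of RefSeq with such a symbol. The glutathione S-transferases held 69 regions, the glucuronosyltransferases 45, the sulfotransferases 32 and the carboxylesterases 46. A region was called promoter when its centre lay within 1000 bp of the transcription start site (TSS) given by the authors, which held for 61 regions of 54 genes, and distal otherwise, which held for 131. The other 19 genes had distal regions alone. Ces1h, Ces2f, Ces3a, Mgst2, Sult1c1, Sult2a1, Sult2a2, Sult2a5, Sult2a6, Sult2b1, Sult6b1, Ugt1a2 and Ugt1a6a were the closest gene of no region. Since 45.4% of the rows in the table carry no gene symbol, a region near such a gene can be among those without a name.

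ATAC-seq uses the Tn5 transposase to cut accessible DNA, so that the reads over a region measure how open it is. One library came from Mettl3 flox/flox livers, in which both alleles of the m6A methyltransferase gene Mettl3 carry loxP sites but no Cre is present, and the other from Mettl3-HKO livers (Mettl3 flox/flox Alb-Cre+/-). Both groups were on a C57BL/6 background, received normal chow and were taken at 8 weeks of age. Alb-Cre is driven by the albumin promoter and so acts in hepatocytes, while nuclei were prepared from whole liver, so that other liver cells kept Mettl3 and were sequenced too. The livers of 4 mice were pooled per group. With 1 library per group there was no replicate error and no test across mice, and every ratio below compares 2 libraries. Intervals are 95% Clopper-Pearson intervals, which cover counting error only. In bulk tissue, fewer cells of a type and less open chromatin per cell cannot be told apart. The 3 regions at Mettl3 itself do not report on the deletion, and its promoter region held 566 reads without and 392 reads with Cre (−0.66 on the log2 scale).

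The scaling totals were 52826202 reads for the Mettl3 flox/flox and 58038305 for the Mettl3-HKO library, of which 31.7% and 22.3% lay in regions. Ratios are log2 values with Mettl3 flox/flox as the denominator, from counts with 1 read added over these totals. Their median over all regions was −0.38, and it was lower at stronger regions, with 0.26 for distal regions under 50 mean reads and −0.66 for those of 250 or more. Each member was therefore also set against the 1000 non-member regions of its own class, promoter or distal, with the nearest mean signal. Its log2 ratio minus their median is called its difference from same-signal regions. A shift of all ratios by 1 value leaves this difference unchanged as long as the same reference regions are kept. The 8 hepatocyte markers all had promoter regions, whose median was −0.76. Promoter regions of 7 of 8 sinusoidal endothelial markers summed to 153 reads in Mettl3 flox/flox and 400 in Mettl3-HKO, with ratios at a median of 1.60, while Pecam1 had none. Of the Kupffer cell, stellate cell and cholangiocyte markers, 2, 3 and 4 of 8 had promoter regions, and their reads summed to 84 and 185, 736 and 209, and 744 and 566 in the Mettl3 flox/flox and Mettl3-HKO libraries. Their median log2 ratios were 1.07, 0.076 and −0.52, and the defining markers Clec4f, Lrat and Krt7 had none. The 3 Kupffer cell promoter regions, of C1qa and Cd14, held only 8 to 45 reads in Mettl3 flox/flox. The 9 distal Kupffer cell regions summed to 882 and 529 reads, with a median ratio of 0.10, and 5 lay above same-signal regions. A Marco region among them held 457 and 7 reads (−5.97). Most of the 736 stellate cell reads came from 1 of 3 regions, since the median region held 37. The part of these cell types in the results below was not tested.

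Phase II enzymes join a polar group to a drug, toxin, bile pigment or hormone so that it can leave in bile or urine. Glutathione S-transferases add glutathione, UDP-glucuronosyltransferases add glucuronic acid from UDP-glucuronate, and cytosolic sulfotransferases add sulfate from the donor PAPS. Carboxylesterases split ester and amide bonds of drugs and lipids and are abundant in the hepatocyte endoplasmic reticulum. Many of these genes lie in tandem clusters that arose by duplication, and the liver receptors PXR and CAR, the aryl hydrocarbon receptor and NRF2 are known to induce a number of them.

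Promoters of near neighbours differed in their counts, and the 250 bases before the RefSeq start are shown for 6 genes whose promoter ratios lay far apart from a close relative or from same-signal regions. Capitals mark matches, on either strand, to 6 short motifs. GTTAAT is the core of sites of hepatocyte nuclear factor 1 and CAAAGTCCA a site of hepatocyte nuclear factor 4. TGACNNNGC is the core of the antioxidant response element and GCGTG that of the xenobiotic response element. The letters TTGCNNAA are searched for C/EBP factors and the letters TATAAA for the box of that name. The sequences are from RefSeq on GRCm38.p6, read 5′ to 3′ on the strand of the gene. Ces2a lies at chr8:104733753-104734002 on the plus strand and Ces2c at chr8:104846818-104847067 on the plus strand. The Ces2a window held 2 C/EBP matches, one on each strand, and the Ces2c window held none of the 6 motifs, while 66.4% of the 250 bases were identical in an alignment.
Ces2a: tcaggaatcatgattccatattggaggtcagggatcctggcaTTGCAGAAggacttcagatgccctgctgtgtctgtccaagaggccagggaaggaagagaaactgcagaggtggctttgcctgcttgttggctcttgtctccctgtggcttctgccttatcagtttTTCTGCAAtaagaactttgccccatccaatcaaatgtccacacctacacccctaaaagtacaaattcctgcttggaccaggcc
Ces2c: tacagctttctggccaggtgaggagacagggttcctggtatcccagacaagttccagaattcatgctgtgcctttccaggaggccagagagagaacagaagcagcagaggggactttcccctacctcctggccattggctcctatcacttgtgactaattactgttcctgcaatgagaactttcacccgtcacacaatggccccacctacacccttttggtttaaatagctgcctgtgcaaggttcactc

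Gstp1 lies at chr19:4037913-4038162 and Gstp3 at chr19:4059448-4059697, both on the minus strand. The Gstp1 window had 18 CpG and 63.2% GC and the Gstp3 window 4 CpG and 52.8% GC, with 53.2% of bases identical.
Gstp1: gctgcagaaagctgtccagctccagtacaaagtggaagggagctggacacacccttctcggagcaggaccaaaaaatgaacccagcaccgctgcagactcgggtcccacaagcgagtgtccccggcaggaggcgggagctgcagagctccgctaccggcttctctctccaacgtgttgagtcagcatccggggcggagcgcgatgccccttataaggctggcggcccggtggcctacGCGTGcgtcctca
Gstp3: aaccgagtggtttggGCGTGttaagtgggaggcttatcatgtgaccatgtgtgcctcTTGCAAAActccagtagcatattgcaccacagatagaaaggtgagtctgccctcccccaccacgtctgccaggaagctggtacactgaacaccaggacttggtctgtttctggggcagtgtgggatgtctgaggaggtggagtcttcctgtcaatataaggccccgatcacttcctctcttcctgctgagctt

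Gsta2 lies at chr9:78347146-78347395 on the minus strand and was the glutathione S-transferase promoter farthest above same-signal regions. Ugt3a1 lies at chr15:9279579-9279828 on the plus strand and was among the promoters farthest below them.
Gsta2: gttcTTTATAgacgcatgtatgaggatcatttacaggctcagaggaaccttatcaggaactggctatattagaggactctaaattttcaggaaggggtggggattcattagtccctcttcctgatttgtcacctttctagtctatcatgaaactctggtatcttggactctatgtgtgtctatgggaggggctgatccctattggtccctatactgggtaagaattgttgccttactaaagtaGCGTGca
Ugt3a1: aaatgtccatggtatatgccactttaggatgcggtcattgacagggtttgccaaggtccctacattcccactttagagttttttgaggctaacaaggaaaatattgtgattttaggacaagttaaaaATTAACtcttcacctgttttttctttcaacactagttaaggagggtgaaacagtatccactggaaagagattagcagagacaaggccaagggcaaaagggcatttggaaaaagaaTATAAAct

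Over the members, 64 of 73 genes matched an entry among 32851 RefSeq promoters, and their windows were poorer in CpG, with a median of 2 against 6 and a median GC content of 44.6% against 52.4%. GTTAAT stood in 13 of the 64 windows (20.3%) and in 6.43% of all promoters, and TTGCNNAA in 16 (25%) and 9.56%. TATAAA was found in 15.6% of member windows and 12.4% of all. The CpG-holding GCGTG stood in 15.6% of member windows and 28.2% of all, and TGACNNNGC in 4.69% and 10.2%. The 3 members with TGACNNNGC were Gsta3, Gstm5 and Mgst1, whose RefSeq starts lay 12936, 8 and 211 bp from the authors' TSS. CAAAGTCCA was in 0 of 64 windows and in 0.384% of all. The GTTAAT matches lay in 5 of 12 sulfotransferase, 5 of 17 glucuronosyltransferase, 2 of 13 carboxylesterase and 1 of 22 glutathione S-transferase windows. A match is a description of these letters and not evidence of a bound site, and windows were taken at the RefSeq start, which lay within 50 bp of the authors' TSS for 52 genes.

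Across the 61 promoter regions the median ratio was −0.58, close to the −0.56 of all 14387 promoter regions, and the median difference from same-signal regions was −0.09. At least 2-fold higher counts in Mettl3-HKO were seen at 3 promoter regions (4.92%), where 4.07% of all promoter regions were that much higher. At least 2-fold lower counts were seen at 11 (18.0%), against 16.3% of all. Set against same-signal regions, 5 promoter regions lay at least 2-fold above (8.20%, against 5.24% of all) and 3 at least 2-fold below (4.92%, against 4.78%). As a whole, then, the promoters of the 4 families had shares near the background.

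The 131 distal regions had a median log2 ratio of −0.51, against −0.27 for all 55162 distal regions, and a median difference from same-signal regions of −0.16. Of them 7 (5.34%) were at least 2-fold higher in Mettl3-HKO, against 15.6% of all distal regions, and 31 (23.7%) were at least 2-fold lower, against 18.8%. Against same-signal regions, 16 (12.2%) lay at least 2-fold above and 15 (11.5%) below, where all distal regions gave 14.3% and 13.3%. Member distal regions were stronger than distal regions at large, with a median of 122 reads in the Mettl3 flox/flox library against 66, and nearer a gene start, with a median distance of 6.18 kb against 16.5 kb. In all, 139 member regions (72.4%) had a peak called in both libraries, 31 (16.1%) in Mettl3 flox/flox alone and 22 (11.5%) in Mettl3-HKO alone, where all regions gave 61.7%, 16.8% and 21.5%. A region with a peak in 1 library alone entered the table through that library. Of the 22 with a peak in Mettl3-HKO alone 19 had a ratio above 0, and all 31 with one in Mettl3 flox/flox alone had a ratio below 0, so that the sign at such regions carries no further information. Counts of each region in both libraries are shown in the scatter of RPM values.

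**Figure D1:**
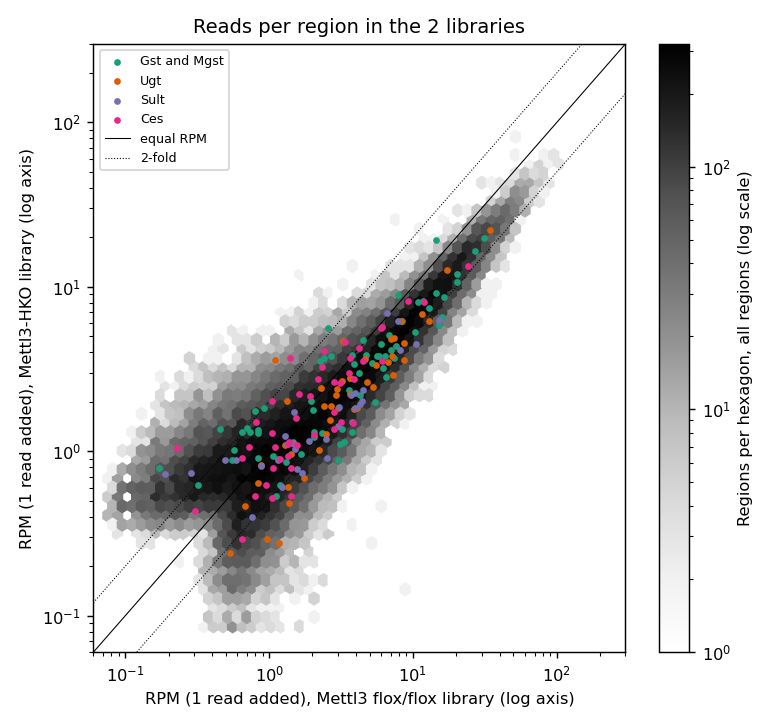
RPM with 1 read added of each region in the Mettl3 flox/flox library (x, log axis) and the Mettl3-HKO library (y, log axis), with members coloured by family over the density of all 69549 regions in grey. The solid line marks equal RPM and the dotted lines a 2-fold difference, and 10 members lie above the upper and 42 below the lower dotted line.

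Family medians lay on both sides of the background. Promoter regions of the carboxylesterases had a median difference from same-signal regions of 0.40, with 10 of 14 above 0. Glutathione S-transferase promoters had a median difference of 0.0052, with 11 of 21 above 0. Glucuronosyltransferase promoters had −0.32, with 4 of 17 above 0, and sulfotransferase promoters −0.36, with 2 of 9 above 0. The median log2 ratios followed the same order, with −0.14, −0.50, −0.76 and −0.97. Centring on the median of all regions gave 0.24, −0.12, −0.39 and −0.59, so that the carboxylesterase median turned positive, and centring on the strongest 10% of promoters gave 0.51, 0.14, −0.12 and −0.32, which also turned the glutathione S-transferase median. That centring adds 0.65 to every ratio, so that each ratio from −0.65 to 0 given below would change its sign. The differences would not, with the same reference regions kept. At distal regions the median differences were 0.0061 for Ces, 0.030 for Gst, −0.16 for Ugt and −0.29 for Sult. Members of a family share clusters and similar sequence, so that regions are not independent of each other.

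**Figure D2:**
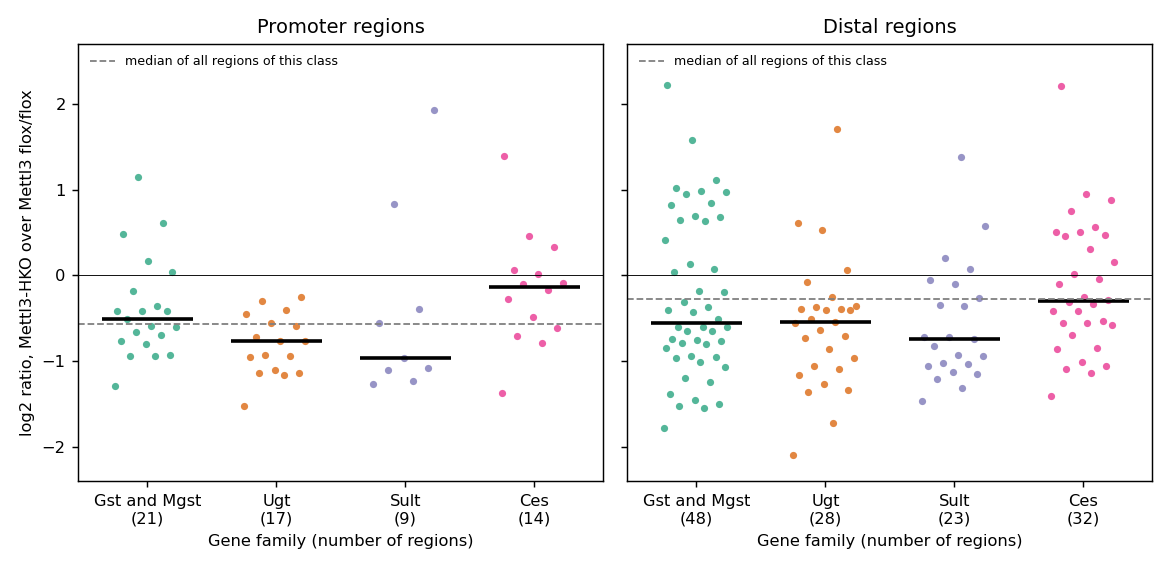
Log2 ratio (y, Mettl3-HKO against Mettl3 flox/flox) of each promoter region (left) and distal region (right) by family, where each point is 1 region, black bars are family medians and the dashed line is the median of all regions of that class. The promoter medians run from −0.97 for Sult to −0.14 for Ces, on both sides of the −0.56 of all promoter regions.

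**Figure D3:**
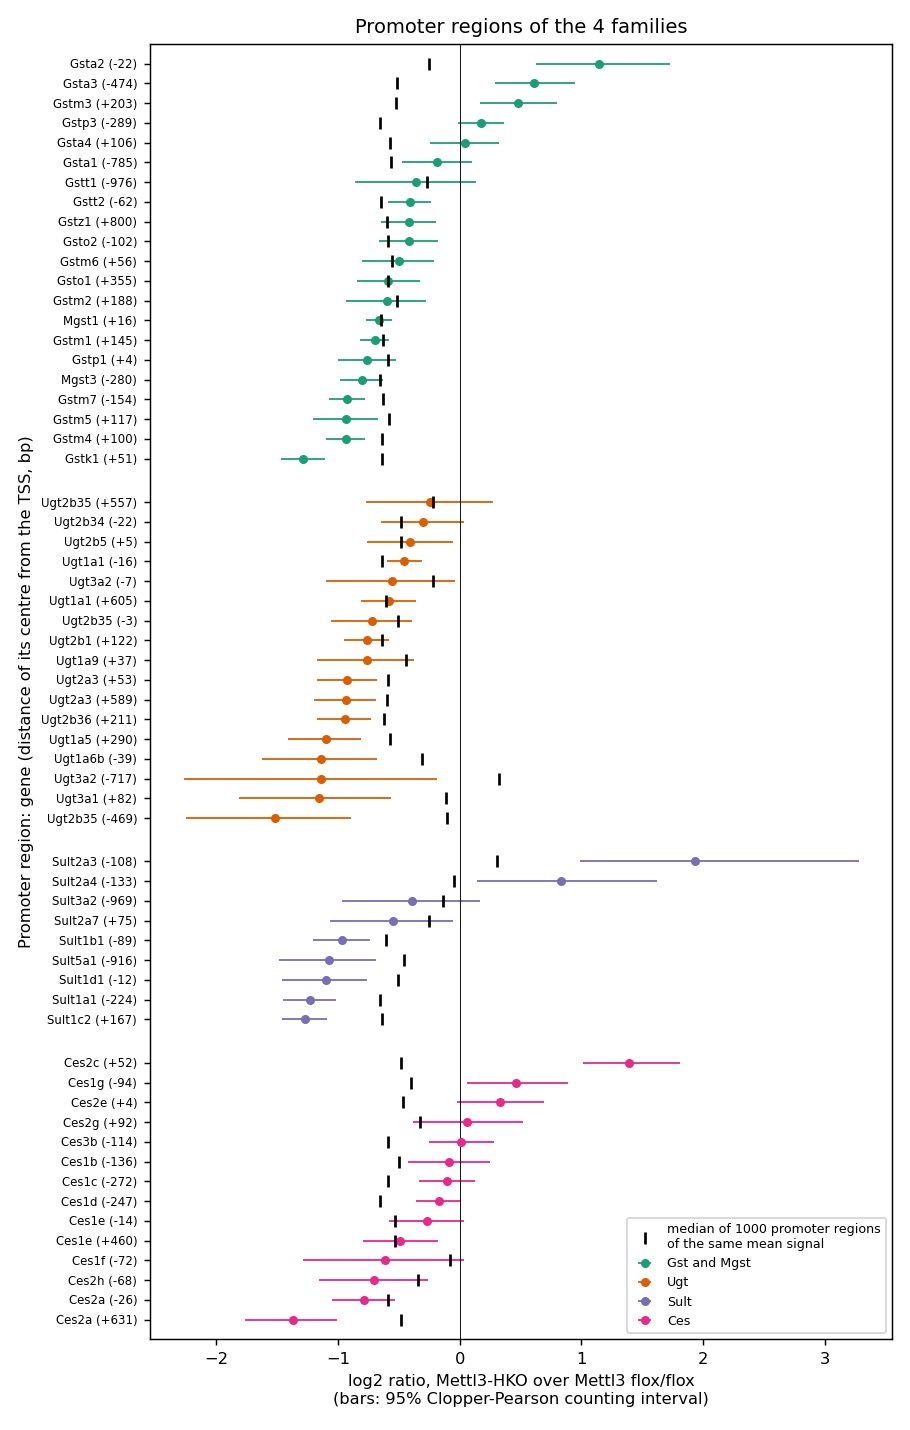
Log2 ratio of each of the 61 promoter regions (x) by gene, with the distance of its centre from the TSS in bp, grouped by family, where horizontal bars are 95% counting intervals and black ticks the median of 1000 promoter regions of the same mean signal. None of the 17 Ugt regions lies above 0 on this scale, where 16.1% of all promoter regions do. With the strongest 10% of promoters centred on 0, 6 Ugt regions and 8384 of all 14387 promoter regions do. Ces2c and Sult2a3 lie farthest to the right of their ticks.

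The alpha-class transferases conjugate lipid peroxidation products such as 4-hydroxynonenal and are the classical inducible class of liver. Their promoter regions, 1 for each of 4 genes, summed to 568 reads in Mettl3 flox/flox and 733 in Mettl3-HKO. The Gsta2 promoter region (chr9:78347034-78347327) held 41 reads in Mettl3 flox/flox and 101 in Mettl3-HKO, with a log2 ratio of 1.14 (interval 0.63 to 1.73). A peak was called there in the Mettl3-HKO library alone. The Gsta3 promoter region lay 474 bp upstream of the authors' TSS, inside the last intron of an overlapping transcript. It held 126 and 212 reads (0.61, interval 0.29 to 0.94). A region 7125 bp upstream of that TSS held 118 and 204 (0.65). The RefSeq start used for the Gsta3 sequence window lay 12936 bp upstream of the authors' TSS, so that both regions lie downstream of it. Gsta4 held 197 and 223 reads at its 5′ UTR, and Gsta1 204 and 197 reads 785 bp upstream. All 5 regions of Gsta1, Gsta3 and Gsta4 lay above same-signal regions, by 0.38 to 1.14.

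The upstream regions of Gsta2 had the opposite sign from its promoter. The strongest, 7523 bp upstream, held 802 reads in Mettl3 flox/flox and 337 in Mettl3-HKO (−1.38, interval −1.57 to −1.20). Its neighbour 8613 bp upstream held 158 and 50 (−1.78, interval −2.28 to −1.33), and regions 1739 bp and 1211 bp upstream held 87 and 55 and 388 and 212. All 4 lay below same-signal regions, by 0.35 to 1.43 on the log2 scale, while the promoter lay 1.40 above. The regions 8613 bp and 1739 bp upstream had a peak in Mettl3 flox/flox alone, and the promoter in Mettl3-HKO alone. Each of these entered the table through the library in which it was high. The other 2 upstream regions had a peak in both libraries. Gsta1 and Gsta2 share 73.6% of their 250 promoter bases.

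The mu-class genes form a cluster of 7 on chromosome 3, each with a promoter region, and include Gstm1, an abundant cytosolic transferase of mouse liver. The Gstm1 promoter region held 1414 reads in Mettl3 flox/flox and 959 in Mettl3-HKO (−0.70), Gstm7 1065 and 616 (−0.92), Gstm4 868 and 499 (−0.93) and Gstm5 324 and 186 (−0.93). Gstm2 and Gstm6 held 188 and 136 reads and 222 and 172 reads. These 6 differed from same-signal regions by −0.35 to 0.05. Gstm3 stood apart from them with 142 and 218 reads (0.48, interval 0.17 to 0.80), 1.0 above same-signal regions. Regions 3423 bp and 2993 bp upstream of Gstm3 held 175 and 65 reads (−1.55, interval −2.00 to −1.15) and 122 and 74 reads (−0.85), both with peaks in Mettl3 flox/flox alone, so that they entered the table through the library in which they were high.

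The pi-class genes lie side by side on chromosome 19. Gstp1, the main pi-class enzyme of mouse liver, held 369 reads at its promoter in Mettl3 flox/flox and 239 in Mettl3-HKO (−0.76, interval −1.0 to −0.52), and the region of Gstp2, 3883 bp upstream of its start, held 402 and 254 (−0.80). All 4 regions of Gstp1 and Gstp2 lay below same-signal regions, by 0.17 to 0.44. The Gstp3 promoter region (chr19:4059414-4060058) held 417 and 517 reads (0.17, interval −0.01 to 0.36). The larger region 1352 bp upstream of Gstp3 (chr19:4060174-4061423) held 762 and 1113 (0.41, interval 0.28 to 0.55), 1.09 above regions of the same signal, of which 97.6% had a lower ratio. The third region, 7127 bp upstream, had a peak in Mettl3 flox/flox alone and held 250 and 221 reads (−0.31).

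Among the other soluble classes, the kappa-class gene Gstk1, which encodes a mitochondrial and peroxisomal transferase, had the lowest glutathione S-transferase promoter ratio. Its promoter region held 837 reads in Mettl3 flox/flox and 377 in Mettl3-HKO (−1.28, interval −1.47 to −1.11), and a region 6180 bp downstream held 169 and 78 (−1.24). Its other region, 4299 bp upstream, held 192 and 160 reads (−0.40), 0.11 above same-signal regions. Gstz1, which degrades maleylacetoacetate in tyrosine breakdown, held 359 and 295 reads 800 bp downstream of the authors' TSS (−0.42). In the theta class, the 10 regions of Gstt1 and Gstt2 lay between −0.33 and 0.86 from same-signal regions, and the single region of Gstt3, 1939 bp upstream, held 198 and 75 reads (−1.52, interval −1.94 to −1.15). The omega-class gene Gsto2 held 318 and 261 reads at its promoter, and 3 regions 20.2 to 25 kb downstream of its start held 16 and 35, 23 and 78, and 33 and 75 reads. The middle one had a log2 ratio of 1.58 (interval 0.94 to 2.36). An intron region 16894 bp downstream held 58 and 30 reads (−1.06). The first 2 of the downstream regions had a peak in Mettl3-HKO alone and the intron region in Mettl3 flox/flox alone, and only the last, with 33 and 75 reads (1.02, interval 0.44 to 1.69), had one in both.

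Mgst1, a microsomal transferase and peroxidase of the endoplasmic reticulum and outer mitochondrial membrane, had the strongest promoter region of all members and, with 12, the most regions. Its promoter region (chr6:138139930-138140735) held 1655 reads in Mettl3 flox/flox and 1148 in Mettl3-HKO (−0.66), and the first intron region beside it 1069 and 691 (−0.76), both within 0.1 of same-signal regions. Each of the 9 regions farther out, 3 upstream and 6 downstream of the gene, had a log2 ratio above 0, from 0.13 to 2.22, but 6 of them had a peak in Mettl3-HKO alone and so entered the table through the library in which they were high. The 3 with a peak in both libraries held 43 and 52, 135 and 323, and 43 and 77 reads. The strongest of the 9, 19150 bp downstream (chr6:138159018-138159915), held 135 and 323 reads (1.12, interval 0.83 to 1.42), and the one with the highest ratio, 125969 bp downstream, 8 and 45 (2.22, interval 1.26 to 3.65). The 9 lay 0.15 to 1.86 above same-signal regions. Mgst1 was the closest named TSS of these regions, and 4 of them lie more than 100 kb away. Mgst3, a related enzyme that can also make leukotriene C4, had all 6 of its log2 ratios below 0, with a peak in both libraries at 5 and in Mettl3 flox/flox alone at 1. Of all regions, 35.2% had a ratio above 0. Against same-signal regions, 5 of the 6 lay below and 1 above, by 0.16. The Mgst3 promoter region held 687 and 432 reads (−0.80), and regions in its second intron 285 and 114 (−1.45, interval −1.78 to −1.14) and 163 and 63 (−1.49, interval −1.95 to −1.08).

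**Figure D4:**
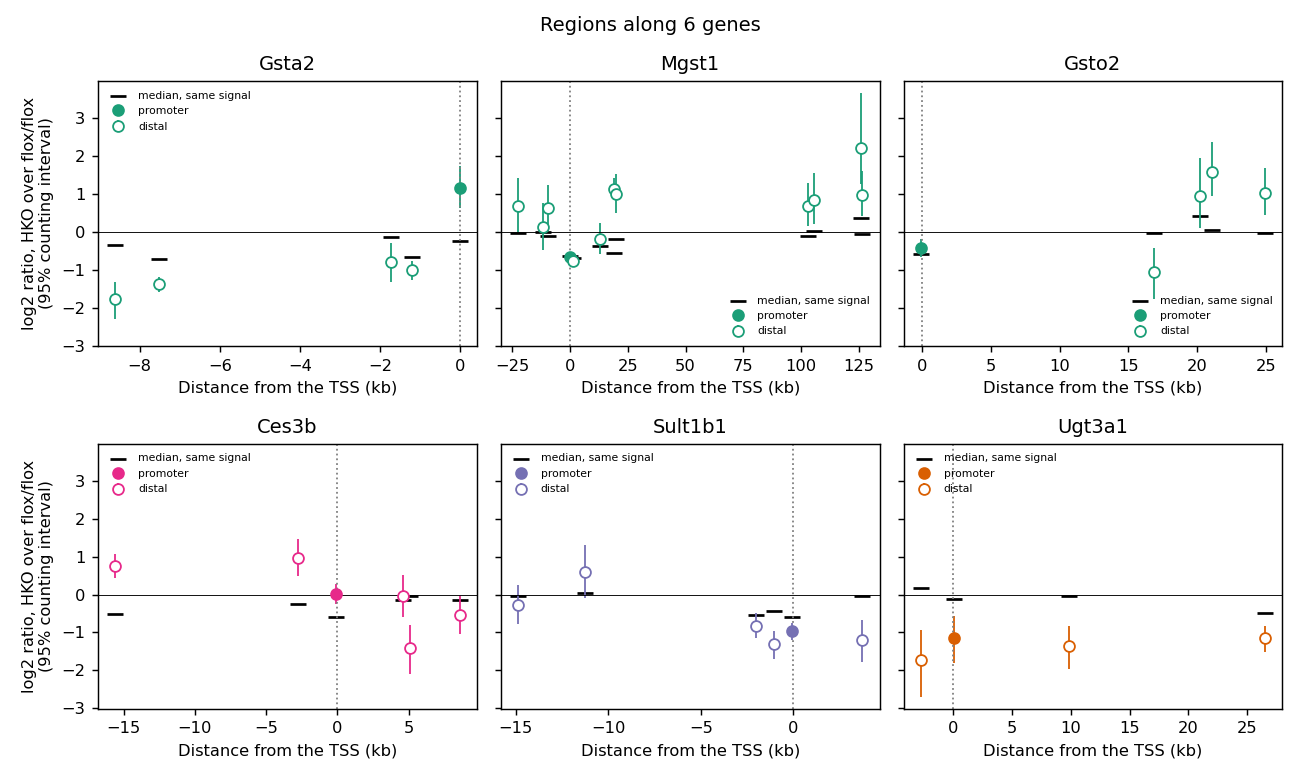
Log2 ratio (y, Mettl3-HKO against Mettl3 flox/flox, with 95% counting intervals) against distance from the TSS in kb (x) for the regions of 6 genes, where filled points are promoter regions, open points distal regions and black dashes the median of regions of the same signal. Gsta2 has a promoter at 1.14 with upstream regions down to −1.78, the 9 outer regions of Mgst1 lie above 0, and the 4 regions of Ugt3a1 lie below −1. The Gsta2 promoter, its region at −1.78 and 6 of the 9 Mgst1 regions had a peak only in the library in which they were high.

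Glucuronosyltransferases of the 1A group share their last exons and differ in their first exon, each with its own promoter. Ugt1a1, the enzyme that conjugates bilirubin, had the strongest promoter region of the family, with 910 reads in Mettl3 flox/flox and 730 in Mettl3-HKO (−0.45, interval −0.60 to −0.31). Its regions 605 bp and 1789 bp downstream held 388 and 284 and 1818 and 1290 reads, and all 3 were 0.02 to 0.18 above same-signal regions. The promoter regions of Ugt1a5 (276 and 141 reads, −1.10), Ugt1a6b (117 and 58, −1.14) and Ugt1a9 (138 and 89, −0.76) lay 0.32 to 0.83 below them. Among the promoter regions of the group, those of Ugt1a1 were thus closest to same-signal regions, and those of the other first exons lay below same-signal regions. The lowest member ratio of all was upstream of Ugt1a10 (chr1:88043113-88043312), where 61 and 15 reads gave −2.09 (interval −3.08 to −1.33) at a region with a peak in Mettl3 flox/flox alone, so that it entered the table through the library in which it was high. A region 4434 bp upstream of Ugt1a10 had 69 and 117 reads (0.62), and those 10288 bp and 6104 bp upstream had 293 and 194 and 192 and 161.

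The 2B group conjugates steroids, bile acids and many drugs. Its strongest promoter regions were those of Ugt2b1 with 610 and 395 reads (−0.76) and Ugt2b36 with 460 and 262 (−0.95), and the related Ugt2a3 held 379 and 219 reads at its promoter (−0.92). These lay 0.12 to 0.33 below same-signal regions. Ugt2b5 and Ugt2b34 held 152 and 126 reads and 155 and 138 reads at their promoters. Ugt2b35 had 3 promoter regions, and the one 469 bp upstream held 72 and 27 reads (−1.52, interval −2.25 to −0.89), with a peak in Mettl3 flox/flox alone, and those near its start, with peaks in both, held 192 and 128 and 67 and 62. The Ugt2b34 regions were the most unequal of the cluster. A region 20821 bp downstream (chr5:86885805-86886427), with a peak in Mettl3-HKO alone, held 57 and 207 reads (1.71, interval 1.30 to 2.17), the largest difference of any member from same-signal regions, 2.16. A region 4006 bp upstream held 385 and 167 reads (−1.34, interval −1.61 to −1.08). Ugt2a1, an enzyme best known from olfactory tissue, had 1 region 8430 bp upstream with 454 and 207 reads (−1.27). Ugt2a2 of the same cluster had 2 regions, 25892 bp and 26830 bp downstream of its start, with peaks in both libraries. They held 170 and 271 reads (0.53, interval 0.26 to 0.82) and 121 and 139 (0.06), 1.12 and 0.56 above same-signal regions.

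The 3A group uses other sugar donors than UDP-glucuronate, and its regions are weak. All 6 regions of Ugt3a1 and Ugt3a2 had log2 ratios below 0, from −1.72 to −0.56, and lay 0.33 to 1.90 below same-signal regions. Of these, 3 had a peak in Mettl3 flox/flox alone and so entered the table through the library in which they were high, and 3 had one in both. The Ugt3a1 promoter region held 70 reads in Mettl3 flox/flox and 34 in Mettl3-HKO (−1.16, interval −1.81 to −0.57). The region 2770 bp upstream held 50 and 16 (−1.72, interval −2.69 to −0.94), the second intron 92 and 39 (−1.35) and the fourth exon 214 and 105 (−1.16, interval −1.51 to −0.82). Ugt3a2 held 74 and 55 reads at its start and 27 and 13 reads 717 bp upstream. With at most 214 reads in either library, their intervals are wide. The group was singled out after its values were seen, as were the other groupings of genes within a family.

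Sulfotransferases of the SULT1 group act on phenols, thyroid hormones, estrogens and catecholamines. Their 4 promoter regions all lay below same-signal regions, by 0.36 to 0.63. Sult1c2 held 803 reads in Mettl3 flox/flox and 365 in Mettl3-HKO (−1.27, interval −1.46 to −1.09), and Sult1a1, the main phenol sulfotransferase, 555 and 260 (−1.23, interval −1.45 to −1.01). Sult1b1 held 426 and 239 reads (−0.97) and Sult1d1 208 and 106 (−1.10). Of the 15 distal regions of the group, 13 also lay below same-signal regions, 3 of them with a peak in Mettl3 flox/flox alone, through which they entered the table. Among the 13 were regions 2367 bp upstream of Sult1a1 with 132 and 52 reads (−1.46) and a peak in Mettl3 flox/flox alone, 1054 bp upstream of Sult1b1 with 198 and 87 (−1.31), and in the second intron of Sult1e1, the estrogen sulfotransferase, with 234 and 117 (−1.13). The 2 that lay above were 4868 bp upstream of Sult1a1, with 348 and 402 reads (0.07), and 11274 bp upstream of Sult1b1, with 30 and 50 (0.58) and a peak in Mettl3-HKO alone. The Sult1a1 region 6019 bp downstream of its start lies in an intron of Sgf29.

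The SULT2A enzymes sulfate bile acids and steroids such as DHEA, and several are known to be female-biased in mouse liver. The promoter regions of Sult2a3 and Sult2a4 had higher counts in Mettl3-HKO. Sult2a3 held 9 and 41 reads at its promoter (1.93, interval 0.99 to 3.28) and 14 and 42 in its second intron (1.38, interval 0.55 to 2.44), and Sult2a4 held 25 and 50 (0.84, interval 0.14 to 1.62). Peaks at these 3 regions were called in Mettl3-HKO alone, and the Mettl3 flox/flox counts, 9 to 25 reads, were low. Sult2a7 held 79 and 59 reads at its promoter, and 3 regions in the first intron of Sult2a8, the most strongly open of this group, held 194 and 127, 99 and 66 (a peak in Mettl3 flox/flox alone), and 414 and 358. Of the remaining sulfotransferases, Sult5a1 held 158 and 82 reads 916 bp upstream (−1.07), Sult4a1, a brain enzyme, 78 and 99 reads in a region that lies in Pnpla5 (0.20), and Sult6b2 45 and 46 (−0.10).

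Carboxylesterases fall into the Ces1 and Ces5a cluster and the Ces2, Ces3 and Ces4a cluster of chromosome 8. Ces1d, also known as triacylglycerol hydrolase for its part in lipoprotein assembly, had the strongest promoter region of the family with 490 reads in Mettl3 flox/flox and 478 in Mettl3-HKO (−0.17, interval −0.36 to 0.01). Ces1c, whose product is secreted into plasma, held 318 and 325 reads (−0.10, interval −0.33 to 0.12), and Ces1g, which hydrolyses triglyceride and cholesteryl ester, 84 and 128 (0.47, interval 0.06 to 0.89). Of the 7 Ces1 promoter regions, 6 lay above same-signal regions, by up to 0.87, and the exception was Ces1f with 49 and 35 reads and a peak in Mettl3 flox/flox alone. Distal regions of the Ces1 genes were spread to both sides, 7 above and 11 below same-signal regions. An intron region 4907 bp downstream of the Ces1a start held 11 and 60 reads (2.21, interval 1.37 to 3.39), while a region 9678 bp upstream of Ces1c held 33 and 16 (−1.14, interval −2.14 to −0.28). The first had a peak in Mettl3-HKO alone and the second in Mettl3 flox/flox alone, so that each entered the table through the library in which it was high. Another region assigned to Ces1a, 15526 bp upstream, lies in an intron of Ces1b. Ces5a had 1 region, 34049 bp upstream, with 167 and 86 reads (−1.09).

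In the second cluster, Ces2a and Ces2c, whose promoter sequences are shown above, had promoter ratios of opposite sign. The Ces2c promoter region (chr8:104846822-104847420), over its 5′ UTR, held 73 reads in Mettl3 flox/flox and 212 in Mettl3-HKO (1.39, interval 1.01 to 1.81), and 98.6% of same-signal promoter regions had a lower ratio. A region at its second exon held 176 and 267 (0.46, interval 0.19 to 0.75). The Ces2a promoter region (chr8:104733799-104734156) held 319 and 203 (−0.79, interval −1.05 to −0.53), its first intron 201 and 85 (−1.37, interval −1.76 to −1.0) and the strong region 1980 bp upstream 1275 and 775 (−0.85). Their differences from same-signal regions were −0.20, −0.88 and −0.17. Of same-signal promoter regions, 31.8% had a lower ratio than the Ces2a promoter region, which was thus near the background. The intron region had a peak in Mettl3 flox/flox alone, and the other 4 regions of these genes had one in both libraries. Both genes were named for their extreme promoter values, so their contrast is a description. Ces2e held 114 and 158 reads at its start (0.33, interval −0.02 to 0.70), Ces2g 80 and 92, and Ces2h 107 and 72.

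Ces3b, a triacylglycerol hydrolase of the liver, had ratios on both sides of 0. Its promoter region held 221 and 245 reads (0.01), and the regions 2743 bp and 15595 bp upstream held 54 and 116 (0.95, interval 0.49 to 1.46) and 127 and 235 (0.75, interval 0.43 to 1.08). Of the regions within the gene, that in intron 8 held 74 and 30 (−1.41, interval −2.10 to −0.81), and those in introns 6 and 10 held 57 and 61 and 82 and 62. The region 2743 bp upstream and that in intron 6 had a peak in Mettl3-HKO alone and that in intron 8 in Mettl3 flox/flox alone, so that their signs carry little, and the other 3 had one in both. Ces4a held 101 and 124 reads 1715 bp upstream and 235 and 205 in its second intron. The limit of 1000 bp decided the class of a few of these regions. Just inside it were Gstt1 at 976 bp with 76 and 65 reads, Sult3a2 at 969 bp with 60 and 50, and Sult5a1. Just outside were Gstt2 at 1021 bp with 304 and 220, Ces2c at 1026 bp and Sult1b1 at 1054 bp.

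The genes that serve these enzymes were described from lists that, like the members, were drawn up with earlier results of these data known. Of 12 genes that supply or recycle co-substrates, all had promoter regions, 14 in number, whose ratios had a median of −0.82 and differed from same-signal regions by a median of −0.21. Of these 0 were 2-fold or more higher and 3 lower, against 4.07% and 16.3% of all promoter regions. Papss2, which makes the sulfate donor PAPS and is the main form in liver, held 155 reads in Mettl3 flox/flox and 69 in Mettl3-HKO (−1.29, interval −1.73 to −0.89), and Impad1, which breaks down the by-product PAP, 1460 and 683 (−1.23). Ugdh, which makes UDP-glucuronate, held 120 and 177 (0.42, interval 0.08 to 0.77), and Slc35d1, which carries nucleotide sugars into the endoplasmic reticulum, 1051 and 1186 (0.04). Gclm and Gclc, the subunits of the rate-limiting enzyme of glutathione synthesis, held 1331 and 1192 (−0.29) and 612 and 516 (−0.38) reads.

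Other conjugating enzymes had promoter regions for 12 of 15 genes, 16 regions with a median log2 ratio of −0.77, of which 2 (12.5%) were 2-fold or more higher and 5 (31.2%) lower, against 4.07% and 16.3% of all promoter regions. Nnmt, which methylates nicotinamide, held 235 and 42 reads at its promoter (−2.59, interval −3.13 to −2.14). Other hydrolases had a median of −0.56 over 12 regions of 9 of 10 genes, with 0 past 2-fold upwards and 1 (8.33%) downwards, against the same 4.07% and 16.3%. The 1 was Pon1, with 338 and 129 reads (−1.52). Exporters of conjugates had a median of −0.48 over 8 regions of 8 genes, with 0 past 2-fold either way, against 4.07% and 16.3%, and Abcc4, a basolateral exporter, held 238 and 352 reads (0.43, interval 0.19 to 0.67). Regulators had a median of −0.83 over 20 regions of 15 of 16 genes, with 0 past 2-fold upwards and 7 (35%) downwards, against 4.07% and 16.3% of all promoter regions. All 3 promoter regions of Nr1i3, which encodes the xenobiotic receptor CAR, were among these 7, with 333 and 107 reads at its start (−1.76, interval −2.10 to −1.46), 225 and 81 (−1.60) and 286 and 105 (−1.57). Nfe2l2, which encodes NRF2, held 3889 and 2564 reads (−0.74), and Nr1i2, which encodes PXR, 533 and 414 (−0.50). At distal regions the medians of these 5 lists, in the order given, were −0.59, −0.98, −0.65, −0.28 and −0.65, against −0.27 for all distal regions. Their median differences from same-signal regions were −0.043, −0.49, −0.23, 0.23 and −0.086 at distal regions, and −0.21, −0.18, 0.056, 0.090 and −0.21 at promoters.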

How the data were processed

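The deposited table of ATAC-seq regions was used, for 1 pooled Mettl3 flox/flox and 1 pooled Mettl3-HKO library. Per the methods and the processing notes, reads were trimmed by the authors with skewer and aligned to GRCm38 with BWA. They removed reads of low mapping quality, which takes out most reads that fit several places equally well, and mitochondrial and improperly paired reads, and called peaks per library with MACS2 without removing duplicates. The counting of reads and any Tn5 shift of read ends are not given in the sources used here. Duplicates make counts less independent than the intervals assume. The authors deposited the raw count of each region, an RPM (count plus 1, scaled to a library total), a ratio of read density in the region over the genome (fold enrichment, not used), and a mark for a called peak. Their column of log2 fold changes was not used. The totals were recovered from RPM and count.

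Of 74821 rows, 5272 repeated a region and were dropped, and 249 rows of members gave 192 regions. Starts were converted to count from 1. Log2 ratios used counts with 1 read added. Mean signal was the mean RPM of both libraries. Intervals were taken from the share of reads in the Mettl3-HKO library. Gene and promoter records of RefSeq (GRCm38.p6) were used for gene names and sequences. The members and lists were chosen with earlier results of these data known. Named genes were, per family, the 4 with the strongest promoter region and the one with most distal regions, for each class the 5 regions farthest above and below same-signal regions among those with at least 40 reads, and any gene alone in its class. The other genes named were picked after their values were seen, to describe each cluster. Scripts were tested on simulated data. Alternatives changed the scaling, added reads, window, number and class of reference regions, signal filter, fold and families. Biopython 1.88 aligned promoters, and scipy 1.17.1, numpy 2.4.6, pandas 2.3.3 and matplotlib 3.10.9 were run under Python 3.11.15.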

Additional observations from a re-analysis of the deposited data

How the results depend on the processing

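Of 96 alternative values, 75 counted as kept and 21 as changed. A median was kept if it moved by less than 0.29 (promoter) or 0.41 (distal). A number of regions was kept if it stayed within 1.5 times. Each limit is the mean reach to either side of the counting interval of 1 region with the median member counts. It is not an error of a median. Both exceed the reported median differences, so that a change of sign alone did not count there. Among the 75 were a distal median of −0.13, centred on all regions, and a promoter difference of 0.026 without the Ugt family. The direction of the member medians depended on the scaling of the libraries. Centred on the median of all regions, the promoter median was −0.21, with 23 regions at least 2-fold higher and 11 lower (6.56% of promoter and 14.5% of distal members higher, against 6.90% and 23.5% of all such regions, and 1.64% and 7.63% lower, against 5.0% and 8.65%). Scaled to reads in regions, the promoter and distal medians were −0.073 and −0.00078, with 30 higher and 6 lower (8.20% and 19.1% higher, against 8.33% and 26.7%, and 1.64% and 3.82% lower, against 3.15% and 6.42%). Centred on the strongest 10% of promoter regions, they turned to 0.062 and 0.13, with 35 higher and 3 lower (11.5% and 21.4% higher, against 9.86% and 30.2%, and 0% and 2.29% lower, against 1.99% and 4.69%). By their construction these scalings shift every ratio by 1 value. They leave differences from same-signal regions as they were only with the same reference regions kept, and the choice of these was not repeated under them. The authors' totals gave 10 higher and 42 lower, and 21 above and 18 below same-signal regions (5.21%, 21.9%, 10.9% and 9.38%, against 13.2%, 18.3%, 12.4% and 11.6% of all regions). In the upper 50% of regions by mean signal, 3 were higher, 10 above and 5 below (2.4%, 8% and 4%, against 3.59%, 7.65% and 4.91% of all). Without the Gst family 5 were higher and 10 above (4.07% and 8.13%, against 13.2% and 12.4%). At a fold of 1.5, 25 were higher, 89 lower, 36 above and 44 below (13%, 46.4%, 18.8% and 22.9%, against 20.8%, 38.8%, 22.5% and 22.3%). With distal regions limited to 10000 bp, a choice made after seeing the data, 12 were above (7.74%, against 9.50%). Both the counts and the shares of members changed with the regions kept or the fold used. With 1 library per group, no replicate could be left out, and the spread between mice was not measured. No paired analysis was possible because the result comes from no test and each group has 1 library.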
